A study of Mus musculus with 2 samples.

Results

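The Dlk1-Dio3 locus of mouse chromosome 12 holds 59 of the 2202 microRNA (miRNA) genes counted in this study. The members were taken by position, as every miRNA gene that the GENCODE M21 annotation of mm10 places on the plus strand in a window from just before Meg3 to just past Mirg. The first starts at 109544541 and the last ends at 109747960, and the rule uses no measured value. The counts come from gastrocnemius, the large calf muscle, of adult B6CASTF1/J mice, an F1 hybrid, all female and 18 to 20 months old, with no treatment named in the labels. MicroRNA-seq, which sequences short RNAs, gave 2 libraries in 1 group, numbered as biological replicates 1 and 2. Both carry the same donor entry and separate tissue sample entries, so the labels do not settle whether 2 animals were used, and differences between the libraries may be technical.

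In this domain, protein-coding genes such as Dlk1, Rtl1 and Dio3 are expressed from the paternal chromosome, and the long noncoding RNAs Meg3, the Rtl1 antisense RNA, Rian and Mirg from the maternal one. The noncoding RNAs carry the miRNA hairpins in their exons and introns. In muscle the domain is known from the callipyge sheep, whose hindquarter muscles are enlarged, and from the transcription factor Mef2a, which regulates the miRNA cluster in muscle regeneration. A count per gene does not separate the parental alleles, so imprinting itself was not measured here.

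Along the plus strand the members fell into 6 successive segments. Meg3 (109541001 to 109571726) holds 2 members, both in annotated exons. The stretch between Meg3 and Rtl1 holds 7 members outside any listed host RNA. The span of Rtl1, a minus-strand gene at 109589193 to 109600330, holds 6 members on the opposite strand, called Rtl1 antisense here. Rian (109603940 to 109661716) holds 4, all in introns. The stretch between Rian and Mirg holds 26 members outside any listed host, and Mirg (109729764 to 109749460) holds 14, of which 9 lie in exons and 5 in introns.

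A mature miRNA pairs with its targets mainly through the seed, bases 2 to 8 from the 5′ end. Mature sequences were found for 57 members in RefSeq (build GRCm38.p6), 106 sequences in all with 97 different seeds, and Gm23912 and Gm27379 were the members not matched. The sequences below are those of the member with the highest mean level in each of the 6 segments, shown so that the genes carrying most counts can be told from each other. Seeds are in capitals, and both arms of each hairpin are given because a count per gene does not separate them.
miR-770-5p of the Meg3 segment: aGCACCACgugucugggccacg
miR-770-3p of the Meg3 segment: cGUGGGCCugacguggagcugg
miR-337-5p between Meg3 and Rtl1: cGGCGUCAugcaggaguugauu
miR-337-3p between Meg3 and Rtl1: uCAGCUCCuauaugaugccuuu
miR-127-5p of Rtl1 antisense: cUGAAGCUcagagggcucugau
miR-127-3p of Rtl1 antisense: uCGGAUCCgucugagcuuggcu
miR-370-5p of Rian: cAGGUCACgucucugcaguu
miR-370-3p of Rian: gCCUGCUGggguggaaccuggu
miR-411-5p between Rian and Mirg: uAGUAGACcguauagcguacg
miR-411-3p between Rian and Mirg: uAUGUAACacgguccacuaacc
miR-382-5p of Mirg: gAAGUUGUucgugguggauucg
miR-382-3p of Mirg: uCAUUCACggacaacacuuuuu

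A seed occurred in more than 1 member 9 times. For some members only 1 arm was found, among them Mir376c, Mir487b, Mir539 and Mir485, so seeds of their other arms are not in this tally. The sequences below show 4 of those pairs with counted members, since miRNAs with the same seed can share targets. Mir379 shared 1 seed with Mir1193 and another with Mir411, and Mir1193 shared a seed with Mir370 of Rian.
miR-379-5p: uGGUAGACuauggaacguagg
miR-1193-5p: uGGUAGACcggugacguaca
miR-379-3p: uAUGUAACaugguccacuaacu
miR-411-3p: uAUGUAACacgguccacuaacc
miR-370-5p: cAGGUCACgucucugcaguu
miR-1193-3p: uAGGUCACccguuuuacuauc
miR-376c-5p: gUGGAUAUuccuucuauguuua
miR-376b-5p: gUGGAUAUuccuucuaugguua
The other shared seeds joined Mir1197 with Mir758, Mir494 with Mir410, Mir453 with Mir496a, and Mir3070a with Mir3070b in 2 seeds. Of the members' mature sequences, 14 had a seed that also occurs in a gene outside the locus.

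A run of 7 letters also recurred outside the shared seeds. The motif GGUCCAC, chosen after the sequences were seen and searched on the strand of the mature RNA, was present in 5 of the 1738 mature sequences of the table (0.288%), and all 5 belong to members of the locus. Mir379, Mir411, Mir380 and Mir758 carry it from base 11, past the seed, and Mir412, in an exon of Mirg, from base 8, the last base of its seed. Capitals mark the motif.
miR-379-3p with the motif: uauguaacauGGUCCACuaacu
miR-411-3p with the motif: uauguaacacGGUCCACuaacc
miR-380-3p with the motif: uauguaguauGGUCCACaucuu
miR-758-3p with the motif: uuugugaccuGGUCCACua
miR-412-3p with the motif: uucaccuGGUCCACuagccg

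The libraries differed in depth. Sense counts on miRNA genes came to 865419 in replicate 1 and 2177048 in replicate 2, 2.52 times as many, which were 12.6% and 18.1% of all reads. Reads that map to several places enter no gene count and made up 80.7% and 71.0%. Levels are given as CPM, that is, scaled so that a library's gene counts sum to 1000000, with SD over both libraries (n = 2). A count of 0 allows up to 3 counts, which is 3.47 CPM in the shallower library and 1.38 in the deeper one. Intervals are exact 95% intervals from the counts. Floors and intervals reflect counting error alone, because the reads carry no molecular identifiers and are not independent molecules.

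Among miRNA gene counts, which leave out reads that map to several places, the locus held a low share that differed between the libraries. Its members summed to 2297 counts in replicate 1 against 14315 in replicate 2, or 2654 and 6575 CPM. This was 0.265% of gene counts (exact Clopper-Pearson bounds 0.255 to 0.276) and 0.658% (0.647 to 0.668), with a mean of 0.461% ± 0.277. The ratio of replicate 2 over replicate 1 was 2.48 (exact conditional interval 2.37 to 2.59), and depended on the scaling, at 1.85 with DESeq2 size factors and 3.58 against all reads. Counts were found for 43 members in replicate 1, for 51 in replicate 2 and for 43 in both. At the depth of replicate 1, replicate 2 would be expected to show 48.3 members. Mir1906-1, Mir3070a, Mir432, Gm23912, Mir882, Mir1197, Mir654 and Mir453 had 0 counts in both.

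Few members held most of the counts, and they lay in different segments. Mir127, which is fully complementary to the Rtl1 messenger RNA on the other strand, led with 686 CPM in replicate 1 and with 2261 in replicate 2. Mir411 followed at 640 ± 124 CPM (552 and 727) and Mir379 at 295 ± 70.9 CPM (345 and 245), both between Rian and Mirg. Mir487b of the same stretch stood at 229 ± 84.7 CPM, Mir382 of Mirg at 219 ± 142 CPM, Mir541 of Mirg at 210 ± 132 CPM and Mir770 of Meg3 at 204 ± 234 CPM. Mir433 and Mir434 of Rtl1 antisense stood at 181 ± 166 and 152 ± 102 CPM. Apart from Mir411 over Mir379, the means of neighbours in this order did not differ beyond their SD over the libraries. That SD includes the shift between libraries. Within each library Mir127 exceeded Mir411, 1.24-fold in replicate 1 and 3.11-fold in replicate 2. The 3 leading members of each library held 59.7% and 51.1% of the locus's counts, and the 10 leading members held 85.3% and 79.7%.

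**Figure D1:**
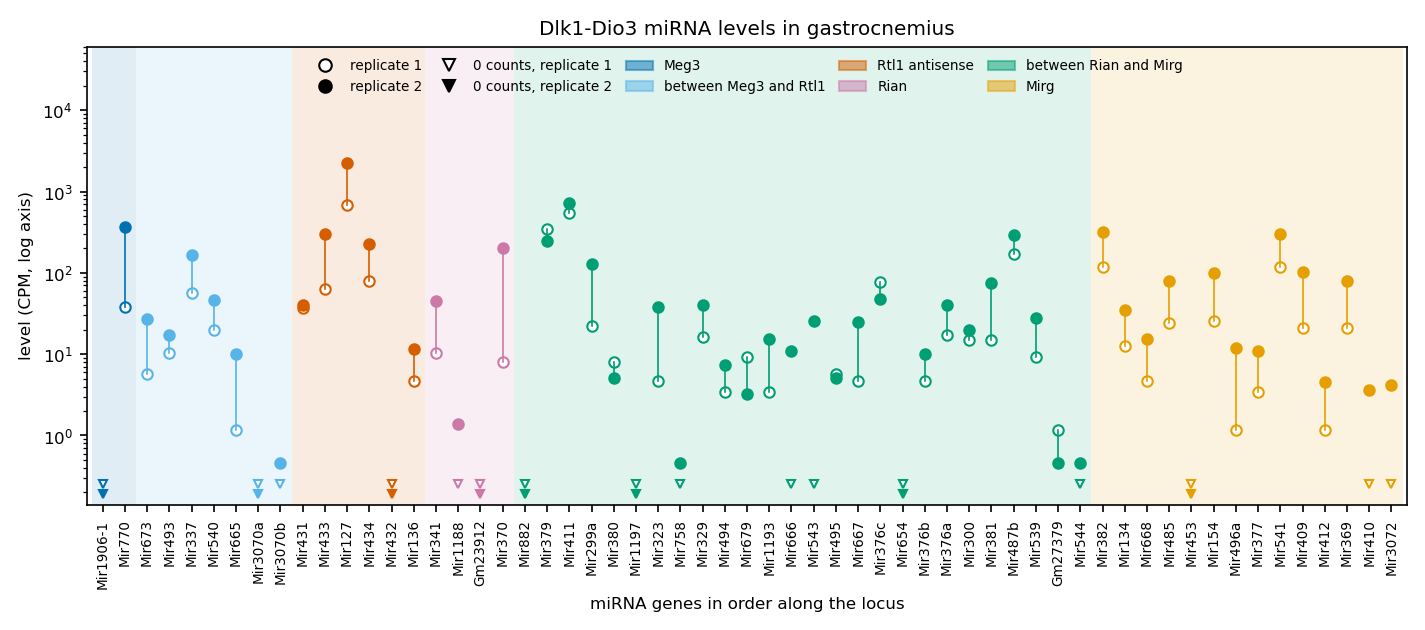
Level of each of the 59 miRNA genes in CPM on a log axis, in order along the plus strand, with open symbols for replicate 1 and filled symbols for replicate 2, colours for the 6 segments and triangles at the bottom for 0 counts. Mir127 stands highest in both libraries (686 and 2261 CPM), and high and low genes lie side by side, as Mir541 and Mir377 do in Mirg.

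Levels showed little steady rise or fall along the locus. A rank correlation with order does not capture differences between segments, whose summed mean levels ran from 134 CPM for Rian to 1853 CPM for Rtl1 antisense. Across the 39 members with a mean of at least 10 counts, Spearman's rho between order along the locus and mean CPM was -0.09, a description over genes that share 2 libraries. Members close together in the same segment often differed severalfold, and mostly in the same direction in both libraries. Among 30 pairs of successive tested members with counts in both libraries, 104 to 8152 bases apart, the median difference was 4.04-fold. In 25 pairs the same member was higher in both libraries, in 3 the order turned and in 2 the members were tied in replicate 1. In 12 pairs the members were at least 4-fold apart in both libraries.

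The scaling between libraries cancels in such ratios between neighbours. In Mirg, Mir541 exceeded Mir377, 1831 bases before it, 33.7-fold in replicate 1 and 27.6-fold in replicate 2. Mir382 exceeded Mir134, a brake on dendritic spine growth in neurons, 9.36-fold and 9.03-fold at a distance of 292 bases. Mir485 exceeded Mir668 5.25-fold and 5.30-fold at 104 bases. In Rtl1 antisense, Mir127 exceeded Mir433 10.8-fold and 7.60-fold and Mir434 8.61-fold and 10.1-fold. Between Rian and Mirg, Mir411 exceeded Mir299a 25.2-fold in replicate 1 and 5.71-fold in replicate 2, and Mir376a exceeded Mir376b 3.75-fold and 3.95-fold. These folds carry no interval, and Mir377, Mir668 and Mir376b had only 3, 4 and 4 counts in replicate 1. The hairpin of Mir376b shares 31 bases with that of Mir376c, so its count can be a lower bound. The order turned for Mir673 and Mir493, for Mir341 and Mir370 and for Mir496a and Mir377.

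**Figure D2:**
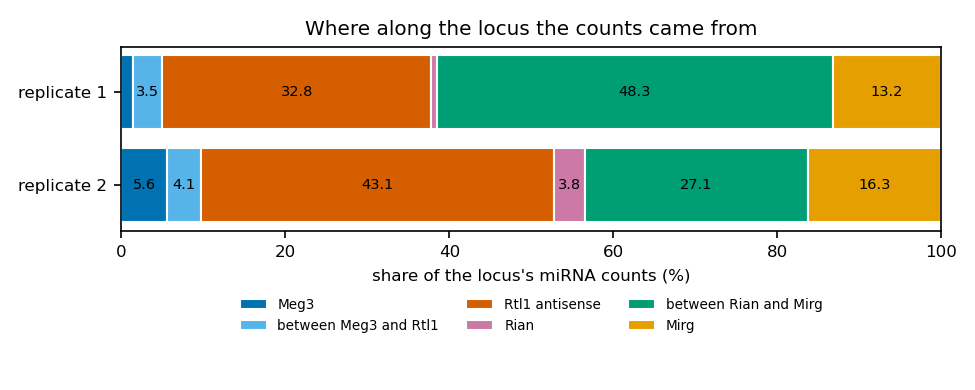
Share of the locus's miRNA counts by segment in percent, 1 bar per library, with numbers printed for shares above 3%. Rtl1 antisense held 32.8% in replicate 1 and 43.1% in replicate 2, and the stretch between Rian and Mirg 48.3% and 27.1%.

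The segments made up the total in different proportions in the libraries. The stretch between Rian and Mirg held 48.3% of the locus's counts in replicate 1 (Clopper-Pearson bounds 46.3 to 50.4) against 27.1% in replicate 2 (26.4 to 27.9). Rtl1 antisense held 32.8% (30.9 to 34.8) and 43.1% (42.3 to 43.9), so the leading segment was not the same one. Mirg held 13.2% (11.8 to 14.6) and 16.3% (15.7 to 16.9). Meg3 held 1.44% (0.991 to 2.01) and 5.62% (5.24 to 6.01), and Rian 0.697% (0.399 to 1.13) and 3.80% (3.49 to 4.13). The stretch between Meg3 and Rtl1 held 3.53% (2.81 to 4.36) and 4.05% (3.73 to 4.39), whose intervals overlap. As means over both libraries, Rtl1 antisense (38.0% ± 7.28) and the stretch between Rian and Mirg (37.7% ± 15.0) did not differ beyond their spread.

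Most tested members lay higher in replicate 2. The exact conditional binomial test, two-sided and adjusted by Benjamini-Hochberg over all 305 genes that averaged 10 counts or more, set the libraries against each other gene by gene. A call needed a 2-fold ratio besides an adjusted p under 0.05. In replicate 2, 29 members were called higher, while 10 were not called and 0 were called the other way. Of all tested genes, 26.9% were called toward replicate 2 and 6.89% toward replicate 1. The test compares 2 libraries and their counting error, not animals or a condition. By value, 37 of the 39 were higher in replicate 2 and 2, Mir379 and Mir376c, in replicate 1, both with an adjusted p under 0.05 by the exact test but short of 2-fold. The median log2 ratio was 1.67 for the tested members, 0.43 for all tested genes and 0.35 for the 266 tested genes outside the locus.

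The filter favours genes that are high in the deeper library. Of the tested members, 16 had under 10 counts in replicate 1 and 0 in replicate 2. With at least 10 counts asked of replicate 1 alone, a choice added after the data were seen, 17 of 23 members were called higher in replicate 2, against 52 of the 248 genes then tested. Their median log2 ratio was 1.48, against 0.27 for all such genes. The other 20 members of the locus were under the count minimum and were not tested. Of those with counts, Mir380 had 7 and 11, Mir679 had 8 and 7, Mir495 had 5 and 11 and Mir494 had 3 and 16, while Mir412, Mir410, Mir3072, Mir1188, Mir758, Mir544, Mir3070b and Gm27379 had at most 10 counts in either library.

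**Figure D3:**
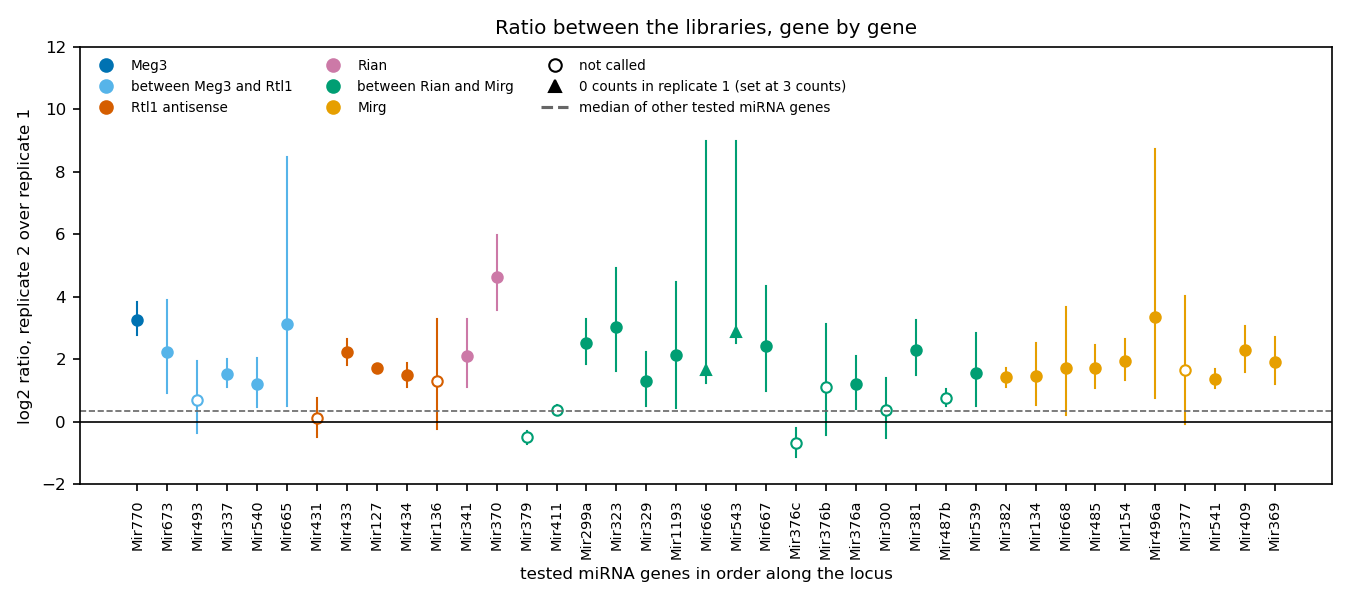
Log2 ratio of replicate 2 over replicate 1 for the 39 tested members in order along the locus, with exact 95% intervals, filled points for called members, open points for members not called, and a dashed line at the median of the other tested genes (0.35). Mir666 and Mir543 have 0 counts in replicate 1, so their points are set against the floor of 3 counts and their exact intervals, which start below the points, have no upper end. Members called higher in replicate 2 lie in every segment, and Mir379 and Mir376c lie below 0.

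Meg3 itself carried 1 counted member. Mir770, in an exon of Meg3 (ENSMUSG00000076451.1, 109563692 to 109563785), had 33 counts, 38.1 CPM, in the first replicate and 804 counts, 369 CPM, in the second. The ratio was 9.69 (6.84 to 14.2, adjusted p = 5.45e-75 by the exact binomial test with Benjamini-Hochberg adjustment). Its hairpin has the highest GC content of the tested members, 70.2%. Mir1906-1, also in a Meg3 exon, had 0 counts, and its hairpin shares 80 bases with its copy Mir1906-2, so reads of either would map to both and enter no count.

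Between Meg3 and Rtl1, the test called 4 of 5 members higher in replicate 2 beside 26.9% of all tested genes. With at least 10 counts asked of replicate 1 alone it was 2 of 2, beside 52 of 248 genes. The summed ratio of the stretch was 2.85 (2.25 to 3.64). Mir337 (ENSMUSG00000065526.4, 109585789 to 109585885) led with 56.6 and 166 CPM, a ratio of 2.93 (2.17 to 4.03). Mir540, 194 bases further on, had 19.6 and 45.9 CPM, a ratio of 2.34 (1.39 to 4.17) whose call neither TMM nor DESeq2 size factors kept. Mir673 had 5 and 59 counts, a ratio of 4.69 (1.90 to 15.0), and Mir665 had 1 and 22 counts, a ratio of 8.75 (1.41 to 361). The width of the last interval comes from the single count in replicate 1, and the call of Mir665 was lost with DESeq2 size factors. Mir493 had 9 and 37 counts and was not called, at a ratio of 1.63 (0.775 to 3.85). Mir3070a and Mir3070b, which share 43 bases, had 0 and 1 count over both libraries.

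Rtl1 antisense held the largest summed level in replicate 2, 871 and 2835 CPM in order of the replicates, a ratio of 3.25 (3.02 to 3.51). Its miRNAs are known to cleave the Rtl1 messenger RNA, to which they are complementary. Mir127 (ENSMUSG00000070076.2, 109592846 to 109592915) had 594 and 4923 counts and took 25.9% and 34.4% of the locus's counts, at a ratio of 3.29 (3.03 to 3.59, adjusted p = 2.68e-222 by the exact binomial test with Benjamini-Hochberg adjustment). Mir433 (109591715 to 109591838) had 63.6 and 298 CPM, a ratio of 4.68 (3.55 to 6.29). Mir434 (109594506 to 109594599) had 79.7 and 225 CPM, a ratio of 2.82 (2.19 to 3.68).

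The same antisense segment held 2 members that were not called. Mir431, known to act on Pax7 in muscle stem cells, had 37.0 and 40.4 CPM, a ratio of 1.09 (0.722 to 1.69), and its log2 ratio turned to -0.15 with TMM and -0.29 with DESeq2 size factors. Mir136 had 4 and 25 counts, a ratio of 2.48 (0.858 to 9.82). Set against Mir127, which removes the scaling, Mir431 was 18.6 times lower in replicate 1 and 55.9 times lower in replicate 2. Mir127 served as the reference here after its values were seen.

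Rian and Meg3 had the highest summed ratios, which overlap within counting error, and that of Rian rests on few counts. Its 4 members summed to 16 counts in replicate 1 against 544 in replicate 2, a ratio of 13.5 (8.25 to 23.8). Mir370, in a Rian intron (ENSMUSG00000065433.1, 109618258 to 109618336), had 7 and 443 counts, or 8.09 and 203 CPM, a ratio of 25.2 (12.1 to 62.9). Mir341, in another stretch of Rian intron at 109611500 to 109611595, had 9 and 98 counts, a ratio of 4.33 (2.19 to 9.75). Mir1188, 226 bases after Mir341, had 0 and 3 counts. Both called members had under 10 counts in replicate 1, so neither enters when 10 counts are asked of that library alone.

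Between Rian and Mirg the summed levels lay closest, at 1283 and 1785 CPM, a ratio of 1.39 (1.30 to 1.49), although the test called 10 of 16 members higher in replicate 2, beside 26.9% of all tested genes. With DESeq2 size factors that count was 7 of 16, beside 19.0% of all tested genes. At a mean of 100 counts or more it was 1 of 4, beside 21.8%. With at least 10 counts asked of replicate 1 alone it was 4 of 9, beside 52 of 248 genes. The sum rests on the members that were not called. Mir379 (ENSMUSG00000065498.4, 109709060 to 109709125), the first counted miRNA of the stretch, had 299 and 534 counts and was 1.41-fold higher in replicate 1, with a ratio of 0.710 (0.615 to 0.821). That is past counting error (adjusted p = 7.22e-06 by the exact binomial test with Benjamini-Hochberg adjustment) and short of the 2-fold threshold, and it turned to a log2 ratio of 0.036 against all reads. Mir411 (ENSMUSG00000065477.3, 109710175 to 109710256) had 478 and 1583 counts, a ratio of 1.32 (1.19 to 1.46), which turned to a log2 ratio of -0.021 with DESeq2 size factors. Mir379 and Mir411 together account for most of the change in the segment's share, from 13.0% to 3.73% and from 20.8% to 11.1% of the locus's counts.

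Other members of that stretch that were not called were Mir487b, Mir376c, Mir376b and Mir300. Mir487b (109727333 to 109727414) had 169 and 288 CPM, a ratio of 1.71 (1.43 to 2.06). Mir376c had 66 and 105 counts, or 76.3 and 48.2 CPM, a ratio of 0.632 (0.460 to 0.874), and was called higher in replicate 1 with DESeq2 size factors. The hairpins of Mir376c and Mir376b share 31 bases and those of Mir487b and Mir376b 20, while Mir411 shares 21 with Mir758, so the counts of these members can be lower bounds. The miR-376 genes are also known for A-to-I editing of their RNA. Mir376b had 4 and 22 counts, a ratio of 2.19 (0.743 to 8.73), and Mir300 had 13 and 43, a ratio of 1.31 (0.694 to 2.67) that turned to a log2 ratio of -0.023 with DESeq2 size factors.

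The called members between Rian and Mirg were mostly at low counts. Mir299a, 381 bases after Mir411, had 22.0 and 127 CPM, a ratio of 5.80 (3.64 to 9.77). Mir381 had 13 and 162 counts, a ratio of 4.95 (2.82 to 9.5). Mir323 had 4 and 82 counts, a ratio of 8.15 (3.06 to 30.6), and Mir667 had 4 and 54, a ratio of 5.37 (1.98 to 20.4). Mir543 had 0 and 55 counts, at least 7.29-fold higher in replicate 2 against the floor of 3 counts, while its exact interval starts lower, at 5.73. Mir666 had 0 and 24 counts, at least 3.18-fold higher against the same floor, with an exact interval that starts at 2.39. Mir1193, whose seeds recur in Mir379 and Mir370, had 3 and 33 counts. Mir329, a neuronal miRNA, had 14 and 88, Mir376a 15 and 87 and Mir539 8 and 60 counts, with ratios between 2.31 and 2.98. The calls of Mir1193, Mir329 and Mir376a were lost with DESeq2 size factors, that of Mir376a also with TMM.

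Genes that share a seed could lie far apart in level. Mir379 and Mir1193 share the seed of their 5p arms, with 345 and 3.47 CPM in replicate 1 and 245 and 15.2 CPM in replicate 2. Relative to Mir127, Mir379 was 1.99 times lower in replicate 1 and 9.22 times lower in replicate 2, and Mir411 1.24 and 3.11 times lower. In contrast, Mir370 was 84.9 times lower than Mir127 in replicate 1 and 11.1 times lower in replicate 2. Of the 5 genes with the GGUCCAC motif, Mir379 and Mir411 were the only tested ones, and Mir380, Mir758 and Mir412 stayed under the count minimum.

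In Mirg nearly all tested members were called. Of 10, 9 were called higher in replicate 2, beside 26.9% of all tested genes. With at least 10 counts asked of replicate 1 alone it was 7 of 7, beside 52 of 248 genes. The summed levels were 350 and 1070 CPM, and the summed ratio was 3.06 (2.71 to 3.46). Mir382, in an exon of Mirg (ENSMUSG00000065428.4, 109733771 to 109733846), had 119 and 319 CPM, a ratio of 2.68 (2.18 to 3.33, adjusted p = 8.08e-25 by the exact binomial test with Benjamini-Hochberg adjustment). Mir541, in an intron (ENSMUSG00000076052.1, 109742409 to 109742498), had 117 and 304 CPM, a ratio of 2.61 (2.11 to 3.25) whose call was lost with DESeq2 size factors. Relative to Mir127, both kept similar places, Mir382 at 5.77 and 7.08 times lower and Mir541 at 5.88 and 7.44 times lower.

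The remaining called genes of Mirg had ratios between 2.78 and 10.3. Mir409 had 18 and 223 counts, a ratio of 4.92 (3.04 to 8.46), Mir154 had 22 and 216, a ratio of 3.90 (2.51 to 6.36), and Mir369 had 18 and 171, a ratio of 3.78 (2.32 to 6.52). Mir485 had 21 and 175 counts, a ratio of 3.31 (2.10 to 5.49). Mir134 had 11 and 77, Mir668 had 4 and 33 and Mir496a had 1 and 26 counts. Neither TMM nor DESeq2 size factors kept the call of Mir668. Mir377, with 3 and 24 counts at a ratio of 3.18 (0.966 to 16.5), was not called. The ratio had no trend along the locus either, with a Spearman's rho of 0.0014 between order and log2 ratio over the 39 tested members.

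The counts lay in the column read as sense. The columns were named from their values, so these counts do not test the strand independently. Antisense counts over all members were 0 in both libraries, and the 7 miRNA genes annotated on the minus strand of the window had 0 sense counts. Mir337, Mir136, Mir299a, Mir380, Mir376a, Mir539 and Mir409 each face such a gene and had 0 counts in the unstranded column, against 120 and 1044 sense counts together. For the other 52 members the unstranded and sense counts were equal. The unstranded column therefore omits some members that are counted by strand, Mir337 and Mir299a among them.

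**Figure D4:**
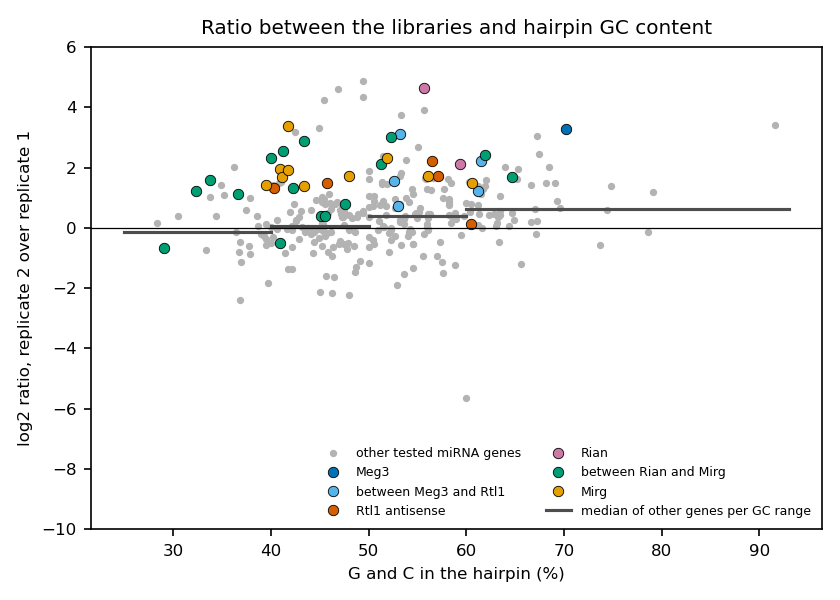
Log2 ratio of replicate 2 over replicate 1 against the GC content of the hairpin in percent, with grey points for the 266 other tested genes, coloured points for the 39 tested members by segment, and dark lines at the median of the other genes in each range of GC content. Most members lie above these lines, which rise from -0.13 under 40% to 0.63 at 60% and above.

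GC content moved with the ratio, inside and outside the locus. Spearman's rho between hairpin GC content and log2 ratio was 0.30 over the 39 tested members and 0.26 over the 266 other tested genes, which share the same 2 libraries. Under 40% GC the median log2 ratio was 1.21 for 5 members and -0.13 for 25 other genes, and from 40% to 50% it was 1.58 for 16 members and 0.05 for 94 others. From 50% to 60% it was 2.13 for 11 members and 0.38 for 99 others, and from 60% it was 1.67 for 7 members and 0.63 for 48 others. The members' median thus lay above that of the other genes in each range. Mir376c has the lowest GC content of the tested members, 29.1%, and also the lowest ratio.

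The libraries correlated less closely over the members than over other genes. On log2(CPM + 1), Pearson's r was 0.870 and Spearman's rho 0.893 over the 39 tested members, against 0.951 and 0.928 over the 266 others, a description across genes that are not independent replicates. The members span a narrower range, up to 2261 CPM against 181375 CPM for the others. At least 10 counts in replicate 1 were found for 23 of the 39 members and for 247 of all 305 tested genes. A narrow range and low counts can each lower a correlation, and their part here was not tested.

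Markers of other cell types were read beside these ratios, since each library is bulk tissue, in which fewer cells of a type and less RNA per cell cannot be told apart. The striated muscle list stood at 40743 CPM in replicate 1 and 103501 in replicate 2, all 6 genes detected. Mir206 alone held 40388 and 103232 CPM of this and was the 1 gene of 5 tested that was called higher in replicate 2, while Mir1a-2 had 270.4 and 162 CPM and was not called. Mir1a and Mir133a are listed as several copies. Reads that map to more than 1 copy enter no count, so the levels of these genes can be lower bounds. The slow fibre list stood at 181 and 956 CPM with 2 of 2 genes called higher in replicate 2, and Mir122 of liver at 10.4 and 95.1 CPM. The smooth muscle list stood at 75404 and 37985 CPM, with 1 of 2 genes called higher in replicate 1. Fibroblast genes stood at 633 and 1383 CPM, with Mir214 called higher in replicate 2 and Mir199a-2 in replicate 1 among 3 tested. Leukocyte genes stood at 4442 and 4930 CPM, with 2 of 6 called higher in replicate 1 and 0 in replicate 2. Epithelial genes stood at 342 and 270 CPM, with 4 of 5 tested called higher in replicate 2 and Mir203, at 318 and 130 CPM, called higher in replicate 1. The endothelial list stood at 47279 and 52968 CPM, all from Mir126a, which was not called, while Mir126b was at 0 in both libraries. Erythroid genes stood at 230 and 316 CPM, with 2 tested and 0 called.

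Neural and satellite cell markers were low. The neural list of Mir9 and Mir124 genes had 1 count in replicate 1 and 5 in replicate 2, and 4 of its 6 genes were at 0 in both, although copies of these miRNAs share sequence and reads that map to several copies enter no count. The 2 matched neuroendocrine genes stood at 39.3 and 100.1 CPM. Of these, Mir7b, at 2.31 and 56.5 CPM, was called higher in replicate 2, and Mir375, at 37.0 and 43.6 CPM, was not called. Of the satellite cell list, Mir489 was at 0 in both libraries and the list stood at 22.0 and 14.2 CPM. The part of any of these cell types, of depth or of GC content in the ratios of the locus was not tested.

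Other imprinted miRNA genes were counted for comparison. Mir675, Mir483, Mir335, Mir296, Mir298 and the genes in the Sfmbt2 intron make 76 genes, of which 14 had counts in each library. Of the 76, 71 are Sfmbt2 intron genes, and 9 of those had counts in each library. Many of the intron genes are numbered copies, and reads that map to several copies enter no count. The 76 genes summed to 1023 and 929 CPM, which can be lower bounds. Of the 9 that were tested, 1 was called toward replicate 2 and 0 toward replicate 1. For the 39 tested members of the Dlk1-Dio3 locus these counts were 29 and 0, beside 26.9% and 6.89% of all tested genes. Whether the locus and the other imprinted genes differ was not tested.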

How the data were processed

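The authors deposited raw read counts for each miRNA gene in 3 columns that carry no header. By their values these hold unstranded, sense and antisense counts. Sense counts were used throughout. Per the deposited README the counts refer to mm10 and GENCODE M21. The choice of aligner, counter and trimming is not given in the sources used here. The 4 tallies of reads without a gene stayed out of library sizes and tests. Unmapped reads were 5.10% and 8.17%, and reads outside miRNA genes 1.67% and 2.73%, of 6888732 and 12001270 reads.

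From these counts, CPM, exact conditional binomial tests with Benjamini-Hochberg adjustment and exact intervals were computed with Python 3.11.15, NumPy 2.4.6, SciPy 1.17.1 and pandas 2.3.3. TMM factors came from edgeR 4.0.16 and size factors from DESeq2 1.42.0 in R 4.3.3, over the tested genes. Pairs of hairpins sharing at least 18 bases were searched on both strands among annotated miRNA genes. The test was checked on simulated counts. Hosts were assigned by overlap with the annotation. In each segment, the text names up to 6 members with the highest mean CPM, up to 6 called members with the largest ratio, every tested member not called and every pair that shares a seed. The rule for members uses position only, but the locus and the lists were chosen with earlier results of these data known. Alternatives were other columns, filters, scalings and left-out members or libraries. The reads, signal tracks and alignments were not analysed here.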

Additional observations from a re-analysis of the deposited data

How the results depend on the processing

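TMM lowers each log2 ratio by 0.28, DESeq2 size factors lower it by 0.42 and scaling to all reads raises it by 0.53. The number of members called higher in replicate 2 was 29 of 39, beside 26.9% of all tested genes. At a mean of 100 counts or more it was 11 of 14, beside 21.8% of the genes then tested. With at least 10 counts in replicate 1 it was 17 of 23, beside 52 of 248 genes. It was 24 with the unstranded column, 26 with TMM, 22 with DESeq2 size factors and 34 with all reads, beside 24.8%, 21.6%, 19.0% and 45.2% of all genes tested under each. Members called higher in replicate 1 numbered 0, but 1 with DESeq2 size factors (Mir376c) and 2 with no ratio threshold (Mir379 and Mir376c). Of all tested genes, 12.8% were called toward replicate 1 with DESeq2 size factors and 64 of 305 with no ratio threshold. By the exact binomial test as first set, that share was 6.89%. The members meant here are Mir379 and Mir376c. The exact binomial test with Benjamini-Hochberg adjustment gave both an adjusted p under 0.05.

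The ratio of the summed counts, 2.48, was 2.27 with the unstranded column, 2.04 with TMM, 1.85 with DESeq2 size factors, 3.58 with all reads, 2.97 without members that share sequence and 2.19 without Mir127. The mean share of the locus was 0.0763% of all reads. The mean share of the stretch between Meg3 and Rtl1 was 1.56% with the unstranded column. Without members that share sequence, the mean shares were 4.94% between Meg3 and Rtl1, 49.3% for Rtl1 antisense, 19.4% between Rian and Mirg and 19.2% for Mirg. Without Mir127 they were 5.47%, 11.4%, 53.3% and 21.3%. These follow from the members removed. The log2 ratio changed sign for Mir431 (-0.15 with TMM and -0.29 with DESeq2 size factors), Mir379 (0.036 with all reads), and Mir411 and Mir300 (-0.021 and -0.023 with DESeq2 size factors), and the cause was not tested beyond the shift of the scaling. TMM lost 3 calls toward replicate 2 and DESeq2 size factors 7, and all reads gained 5. Depth limits members with few counts in replicate 1, whose intervals are wide. No paired analysis was possible because the study has 1 group.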
